A study of Homo sapiens and Mus musculus with 18 samples.

Results

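Met5a is an established human cell line of mesothelial origin, and the comparison described here set 3 Met5a libraries labelled V3 against 3 labelled CTR, taken by their column names from a table of 10 Met5a libraries in a series of 18 samples. V3 cells overexpressed a form of AMHR2 that the design text of the series calls an inactive receptor, and their genotype tag reads Amhr2+. CTR cells carry the genotype tag WT. Another Met5a group, V1 with 4 libraries, overexpressed the form that the text calls active, and it is used below only where V3 and V1 are compared. All cells grew in DMEM with 10% serum, and the labels name no AMH treatment and no vector, and do not say what the CTR cells received or whether V3 was 1 clone or a pool. All 58735 genes of the table belong to the comparison, and 17175 of them had enough counts to be tested.

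AMHR2 is the type II receptor for AMH (anti-Müllerian hormone), which belongs to the TGF-beta superfamily of secreted factors. The ligand-bound receptor pairs with a type I receptor such as ACVR1 (ALK2), and the pair acts mainly through SMAD1, SMAD5 and SMAD9, whose best-known targets are the ID genes. Mesothelial cells line the body cavities, and AMHR2 is best known from the Müllerian duct mesenchyme, the gonads and the coelomic epithelium.

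The transgene was read from AMHR2 (ENSG00000135409, GRCh38 chr12:53423855-53431534). AMHR2 had 0 counts in CTR 1, 2 and 3. A count of 0 leaves room for 3 counts, or 0.140, 0.168 and 0.177 CPM (counts scaled to a common library size) in these libraries. In V3 1, 2 and 3 it stood at 6061, 61.8 and 2.72 CPM, from 121681, 1094 and 47 counts. All 3 V3 libraries lay above the CTR limits, by at least 34300-fold, 349-fold and 15.3-fold over the largest of them. The V3 libraries thus spanned a wide range of receptor level, with V3 1 high, V3 2 intermediate and V3 3 low. ACVR1 (chr2:157736444-157875862) was likewise highest in V3 1 and lowest in V3 3, with 26.6, 26.4 and 27.2 CPM in CTR 1, 2 and 3 and 7198, 327 and 79.7 CPM in V3 1, 2 and 3. The V3 libraries were 265-fold, 12-fold and 2.93-fold above the highest CTR library, and the fitted log2 difference was 6.57 (SE 2.05) with all 3 and 2.93 without V3 1. The labels do not mention ACVR1, so what its excess reads come from was not tested. Per length, AMHR2 had 1695, 17.2 and 0.768 FPKM in V3 1, 2 and 3, and ACVR1 had 1775, 80.4 and 19.9 FPKM. By FPKM, AMHR2 ranked 12th of all genes in V3 1, 2967th in V3 2 and 13897th in V3 3, and ACVR1 ranked 11th, 489th and 2554th. Both receptors together took 1.25%, 0.0392% and 0.00833% of the counts of V3 1, 2 and 3. AMH itself, the ligand, had 36.2, 61.8 and 45.5 CPM in CTR against 61.4, 49.7 and 38.8 CPM in V3, and these ranges overlapped, with a log2 difference of 0.06 (SE 0.25).

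**Figure D1:**
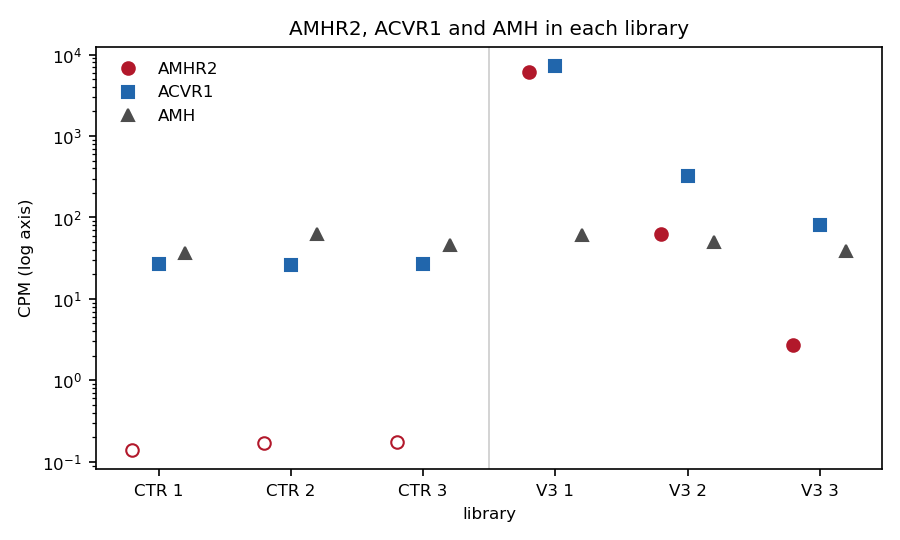
AMHR2, ACVR1 and AMH in each of the 3 CTR and 3 V3 libraries (x axis), as CPM on a log scale (y axis); each point is 1 library and AMHR2 in CTR is drawn at the limit that 0 counts allow. AMHR2 and ACVR1 are both highest in V3 1 (6061 and 7198 CPM) and lowest in V3 3 (2.72 and 79.7 CPM), while AMH lies between 36.2 and 61.8 CPM in all 6.

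The libraries held 16405711 to 21380452 counts, with 3.27% to 5.09% of counts on mitochondrial genes. CTR 3 stood apart, with a highest correlation of 0.942 with any other Met5a library, the highest mitochondrial share, and position 92.19 on the first principal component (39.4% of the variance) against -36.2 to 12.16 for the other 5 libraries compared. V3 1, the library with the most AMHR2, correlated best with the library V1 4 (0.991) and with CTR 2 (0.987), above its 0.970 and 0.958 with V3 2 and V3 3. V3 2 and V3 3 lay at -47.77 and -58.14 on the second component (28.8%), and V3 1 lay with the CTR libraries at 22.42 to 29.9. Measured over the genes tested, the median absolute log2 difference from the CTR mean was 0.266 for V3 1, 0.331 for V3 2 and 0.311 for V3 3, while CTR 3 stood 0.499 from the mean of CTR 1 and 2. No pair of libraries within CTR or within V3 agreed within counting noise, and pairs across groups were not checked for this.

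**Figure D2:**
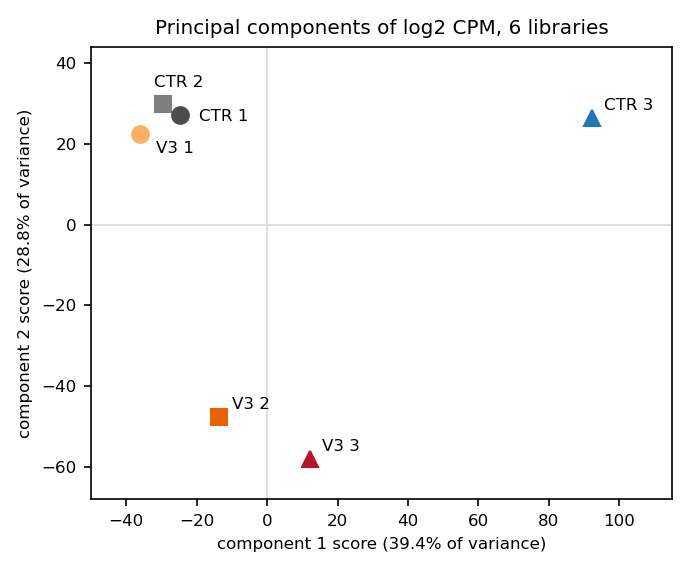
The 6 libraries on the first and second principal components of log2 CPM over the genes tested (39.4% and 28.8% of the variance); each point is 1 library. CTR 3 lies alone at 92.19 on the first component, and V3 1 lies beside CTR 1 and CTR 2 on the second.

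Across all genes, 8498 were higher and 8677 lower in V3, with a median log2 difference of -0.004. The quasi-likelihood test of edgeR called 0 genes (0% of those tested) at an adjusted p of 0.05. AMHR2 itself, with 0 counts in every CTR library, was among the genes not called, at a log2 difference of 18.2 (SE 5.65). At an unadjusted p under 0.05, 304 genes were higher (1.77%) and 423 lower (2.46%). DESeq2 called 10 genes (0.0582%) and gave AMHR2 and ACVR1 no adjusted p. Limma on log2(FPKM + 1) called 1 gene, MAGED4. In 847 genes (4.93%) every V3 library lay above every CTR library, and in 888 (5.17%) every V3 library lay below, 1735 together (10.1%). These percentages are the background for the counts below in which all 6 libraries were used. V3 1 was the highest V3 library in 127 of the 847 higher genes and the lowest in 109 of the 888 lower ones. Since no gene passed the edgeR test, differences below are log2 differences (V3 minus CTR) with the standard error (SE) of that fit. Its adjusted p is 1.00 after rounding unless another value is given.

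The 5 genes that DESeq2 called higher were TNFAIP3 (DESeq2 adjusted p = 0.000187), MYEF2 (0.023), ADGRG1 (0.0482), STYK1 (0.0482) and FAT3 (0.0494). TNFAIP3 (GRCh38 chr6:137867188-137883312) encodes A20, a ubiquitin-editing enzyme that restrains NF-kB signalling. TNFAIP3 had 79.8, 80.4 and 60 CPM in CTR 1, 2 and 3 and 198, 163 and 135 CPM in V3 1, 2 and 3. Every V3 library was above every CTR library, with a log2 difference of 1.17 (SE 0.20) and an edgeR adjusted p of 0.765. ADGRG1 (GPR56), an adhesion G protein-coupled receptor, had 10.2, 13.9 and 11.3 CPM in CTR compared with 19.1, 42.2 and 34.6 CPM in V3, a log2 difference of 1.44 (SE 0.32). MYEF2, a nucleic acid-binding protein, had 5, 6.17 and 4.19 CPM in CTR against 9.31, 33.3 and 39.8 CPM in V3, a log2 difference of 2.42 (SE 0.56). V3 2 and V3 3 were the high libraries for both genes, and V3 1 was the V3 library nearest to CTR. STYK1, a kinase-like membrane protein, had 2.53, 3.87 and 2.36 CPM in CTR compared with 5.03, 12.7 and 9.19 CPM in V3. FAT3, an atypical cadherin, had 2.2, 3.37 and 2.42 CPM in CTR against 5.88, 6.33 and 11.2 CPM in V3. Neither overlapped, and FAT3 was highest in V3 3 while STYK1 was highest in V3 2.

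The promoter of TNFAIP3 is shown because it held the searched NF-kB site, set in capitals and read on the strand opposite to the gene, 67 bases before the start site and overlapping no other motif searched. The window of 250 bases before and 50 after the start is from RefSeq on GRCh38.p14, plus strand, chr6:137867009-137867308.
TNFAIP3 promoter: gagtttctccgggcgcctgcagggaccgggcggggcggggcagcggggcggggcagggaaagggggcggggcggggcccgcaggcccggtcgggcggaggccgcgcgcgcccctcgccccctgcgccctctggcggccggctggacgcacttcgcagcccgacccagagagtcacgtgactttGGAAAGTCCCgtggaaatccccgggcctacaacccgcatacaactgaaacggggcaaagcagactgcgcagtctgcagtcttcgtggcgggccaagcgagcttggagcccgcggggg
Searched on both strands, that motif occurred in 0.194% of 27305 RefSeq promoters of this length and, among the 20 members of the NF-kB list with a promoter, in that of TNFAIP3 alone.

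Other higher genes were taken by the smallest p or by the widest gap between the groups. SEMA3D, a secreted semaphorin that guides migrating cells, had 8.04, 15.9 and 9.14 CPM in CTR compared with 20.8, 26 and 28.4 CPM in V3, a log2 difference of 1.19 (SE 0.28). FGF5, a fibroblast growth factor, had 7.02, 9.77 and 5.19 CPM in CTR against 22.6, 43.3 and 29.8 CPM in V3, a log2 difference of 2.12 (SE 0.68). The 3 V3 libraries of FGF5 lay above CTR by the wide margin from 9.77 to 22.6 CPM. ADM, which encodes the vasodilator peptide adrenomedullin, had 34.7, 37.3 and 24.2 CPM in CTR compared with 56.8, 90.3 and 109 CPM in V3, a log2 difference of 1.41 (SE 0.38). APLN, which encodes the peptide apelin, had 13.8, 14.1 and 6.66 CPM in CTR against 24, 26.4 and 30.6 CPM in V3, a log2 difference of 1.23 (SE 0.34). Both peptides were higher in all 3 V3 libraries, and for ADM the low V3 library was again V3 1. ANGPTL4, a secreted inhibitor of lipoprotein lipase, had 24.2, 24.5 and 9.85 CPM in CTR compared with 38.8, 123 and 139 CPM in V3, so that V3 2 and V3 3 stood well above V3 1. PTPRB, a receptor tyrosine phosphatase, had 3.46, 5.5 and 4.31 CPM in CTR against 8.12, 14.6 and 18.1 CPM in V3, and PLK2, a polo-like kinase, had 61.6, 79.9 and 83.8 CPM in CTR compared with 113, 137 and 119.6 CPM in V3. Neither gene overlapped between groups, with log2 differences of 1.62 (SE 0.44) and 0.72 (SE 0.18). Of long non-coding RNAs, LINC00973 had 2.53, 2.36 and 1.36 CPM in CTR against 5.33, 15 and 9.42 CPM in V3, and LNCAROD had 3.74, 3.82 and 1.53 CPM in CTR compared with 4.38, 20.1 and 17 CPM in V3. Both were higher in every V3 library and highest in V3 2, as was SNHG15 (log2 difference 0.57, SE 0.36). Long non-coding RNAs taken in the lower direction are given with the lower genes.

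Genes that dampen or report ERK (MAP kinase) signalling were the list with the largest share of non-overlapping members in the higher direction among those described here. Of 25 listed, 24 were tested, 17 were higher and 7 lower, with a median log2 difference of 0.34 against -0.004 for all genes. In 10 of the 24 the V3 libraries lay wholly above CTR (4.93% of all genes did) and in 0 wholly below, and 8 were higher at an unadjusted p under 0.05 (1.77% of all genes). DUSP4, a nuclear phosphatase that inactivates ERK, had 89.7, 142 and 169 CPM in CTR against 201, 266 and 277 CPM in V3, a log2 difference of 0.89 (SE 0.27). PHLDA1, a pleckstrin homology-like protein induced by growth factors, had 217, 204 and 99.4 CPM in CTR compared with 288, 400.3 and 333 CPM in V3, a log2 difference of 0.98 (SE 0.34). The lowest V3 library was above the highest CTR library in both, and the gap was 169 to 201 CPM for DUSP4. DUSP14, a small dual-specificity phosphatase, had 18.3, 31.9 and 27.7 CPM in CTR against 43.8, 51.6 and 35.9 CPM in V3, a log2 difference of 0.76 (SE 0.26). LIF, a cytokine of the IL6 family, had 42.1, 40.3 and 50.7 CPM in CTR compared with 60.2, 74.8 and 99.3 CPM in V3, a log2 difference of 0.82 (SE 0.22). In each of the 4 genes the V3 libraries were all higher, and V3 3 was the highest for DUSP4 and LIF. The other non-overlapping members, all higher, were DUSP1, DUSP5, CCND1, ETV4, ETV5 and SPRY2, with log2 differences from 0.23 for ETV5 to 0.91 for CCND1. CCND1, which encodes cyclin D1, had 147, 215 and 71.8 CPM in CTR against 308, 289 and 221 CPM in V3, and here V3 1 was the highest library. Without V3 1 the list median was 0.53, with 13 members wholly higher and 1 wholly lower (13.6% and 13.8% of all genes). Without CTR 3 it was 0.50, with 14 and 0 (11.2% and 10.2% of all genes).

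Immediate-early genes, which cells transcribe within minutes of a stimulus, had 29 of 30 members tested, 21 higher and 8 lower, with a median of 0.42. In 9 of the 29 the V3 libraries lay wholly above CTR and in 0 wholly below, and 6 were higher at an unadjusted p under 0.05. FOSL1, an AP-1 subunit of the FOS family, had 54.1, 103 and 23.5 CPM in CTR compared with 194, 169 and 144 CPM in V3, a log2 difference of 1.49 (SE 0.46). KLF2, a zinc-finger transcription factor, had 17.2, 14.1 and 6.96 CPM in CTR against 17.9, 56.4 and 46.2 CPM in V3, a log2 difference of 1.65 (SE 0.51). All V3 libraries were above CTR for both. The nearest libraries of the groups stood at 17.2 and 17.9 CPM for KLF2 and at 103 and 144 CPM for FOSL1. EGR1, the zinc-finger factor that marks recent growth factor stimulation, had 56.4, 29 and 19.3 CPM in CTR compared with 43.1, 133 and 459 CPM in V3. Its groups overlapped through V3 1, and the log2 difference of 2.60 (SE 0.75) became 1.35 without V3 3. JUN, an AP-1 subunit, had 97.2, 128 and 138 CPM in CTR against 192, 211 and 246 CPM in V3, and ATF3, a stress-induced repressor, had 22.1, 23.8 and 29.4 CPM in CTR compared with 55.6, 43 and 49.5 CPM in V3. These genes, MAFF, KLF6 and FOSB, and PHLDA1 and KLF10, which also stand in other lists, were the other non-overlapping members, all higher. JUN, ATF3, MAFF, KLF6 and FOSB had log2 differences from 0.29 for KLF6 to 0.98 for ATF3. Without V3 1 the immediate-early median was 0.58, with 12 wholly higher and 2 wholly lower (13.6% and 13.8% of all genes), and without CTR 3 it was 0.46, with 13 and 0 (11.2% and 10.2%).

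Promoters of 1 gene from each of these lists are shown with the motif found in them. In EGR1 the capitals mark 2 CArG boxes, the binding motif of serum response factor, 105 and 83 bases before the start site. In DUSP1, a phosphatase of MAP kinases with 62.4, 68.3 and 84.5 CPM in CTR against 85.2, 85.3 and 155 CPM in V3, they mark the cAMP response element TGACGTCA, 125 bases before the start. Both windows are from RefSeq on GRCh38.p14, EGR1 on the plus strand at chr5:138465229-138465528 and DUSP1 on the minus strand at chr5:172771146-172771445, and neither motif overlapped another one searched.
EGR1 promoter: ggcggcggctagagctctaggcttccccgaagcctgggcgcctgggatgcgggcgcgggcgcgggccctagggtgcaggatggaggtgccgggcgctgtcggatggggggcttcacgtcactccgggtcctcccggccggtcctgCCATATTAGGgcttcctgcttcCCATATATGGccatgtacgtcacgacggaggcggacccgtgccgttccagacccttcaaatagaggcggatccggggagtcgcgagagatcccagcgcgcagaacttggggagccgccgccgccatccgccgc
DUSP1 promoter: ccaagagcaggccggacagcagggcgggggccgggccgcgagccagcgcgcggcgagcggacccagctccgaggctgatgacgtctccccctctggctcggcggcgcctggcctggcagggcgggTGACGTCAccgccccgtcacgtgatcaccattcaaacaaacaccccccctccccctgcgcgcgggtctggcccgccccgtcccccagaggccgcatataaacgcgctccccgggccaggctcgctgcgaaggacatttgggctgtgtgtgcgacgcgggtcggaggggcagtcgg
Searched on both strands, a CArG box was in 1.29% of all RefSeq promoters and in 2 of the 21 immediate-early genes with a promoter. TGACGTCA was in 1.98% of all promoters, in 3.15% of those of genes tested here, and in 4 of the 17 ERK feedback genes with a promoter (DUSP1, DUSP8, EPHA2 and VGF). These matches describe the sequences, and binding was not measured.

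**Figure D3:**
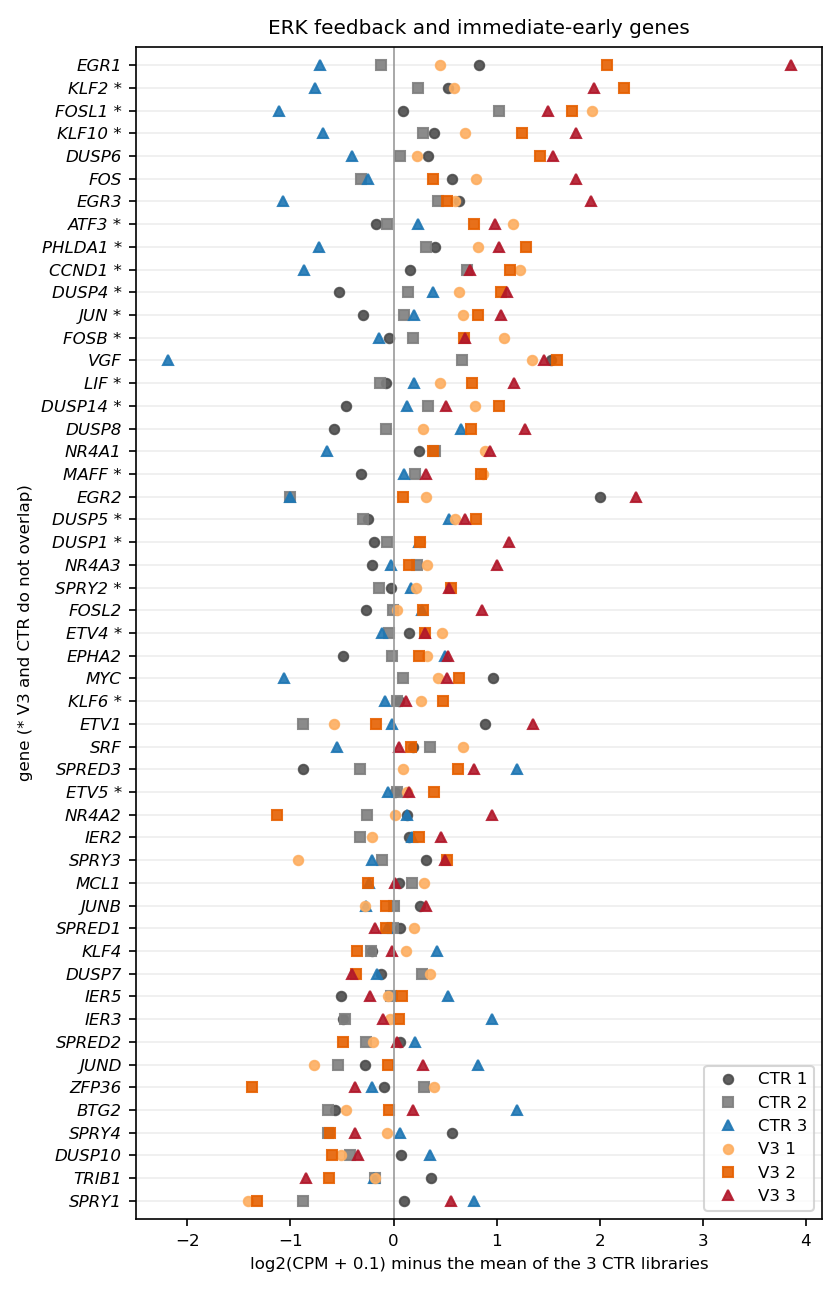
ERK feedback and immediate-early genes, 1 gene a line, with each of the 6 libraries as a point at its log2(CPM + 0.1) minus the mean of the 3 CTR libraries (x axis); an asterisk marks genes whose V3 and CTR libraries do not overlap. The V3 points lie right of the CTR points in DUSP4, LIF and FOSL1, and V3 1 lies among the CTR points in EGR1.

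Targets of the YAP-TEAD pathway, which responds to cell shape and density, had 27 members tested of 27, 21 higher and 6 lower, with a median of 0.38 and 5 members wholly higher, 0 wholly lower. GADD45A, a stress-response gene of the list, had 46, 63.9 and 59.2 CPM in CTR compared with 117, 143 and 114 CPM in V3, a log2 difference of 1.15 (SE 0.37). AMOTL2, an angiomotin that binds YAP, had 176, 234 and 208 CPM in CTR against 274, 288 and 332 CPM in V3, a log2 difference of 0.53 (SE 0.19). Both were higher in every V3 library. The classical target CYR61 (CCN1), a matricellular protein, had 619, 949 and 851 CPM in CTR compared with 1450.5, 1091 and 1159 CPM in V3 and did not overlap. CTGF (CCN2), another such target, had 244, 250.1 and 238 CPM in CTR against 402, 404 and 189.8 CPM in V3, with V3 3 below CTR. F3, which encodes tissue factor, had 51.6, 148 and 48.5 CPM in CTR compared with 346, 205 and 108 CPM in V3, highest in V3 1 and overlapping through CTR 2. V3 1 was the highest V3 library in 18 of the 27 genes, and the list median ran from 0.18 without CTR 3 to 0.50 over single libraries left out. Without both CTR 3 and V3 1, a setting chosen after seeing the data, it was 0.09. Then 7 members were wholly higher and 6 wholly lower (25.6% and 24.1% of all genes).

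For NF-kB targets the median of 22 tested members was 0.07, with 12 higher and 10 lower, and 3 wholly higher and 0 wholly lower. Beside TNFAIP3 these 3 held CD83, a surface glycoprotein of activated cells, with 3.27, 2.97 and 1.65 CPM in CTR against 4.18, 9.72 and 8.84 CPM in V3, a log2 difference of 1.52 (SE 0.51). RELB, an NF-kB subunit, had 5.38, 9.26 and 16.7 CPM in CTR compared with 17.3, 29.3 and 21.1 CPM in V3, a log2 difference of 1.11 (SE 0.40). The V3 libraries of both were all higher, by little where CTR 3 was high for RELB (16.7 against 17.3 CPM). CTR 3 also held most of the mitochondrial superoxide dismutase SOD2, with 65.1, 62.1 and 1028 CPM in CTR against 68.2, 124 and 93.5 CPM in V3. The list median lay just below 0 without CTR 1 or without V3 1. Without CTR 3 it was 0.48, with 12 members wholly higher and 1 wholly lower (11.2% and 10.2% of all genes), and SOD2 moved to the higher side at 0.59. Chemokines and cytokines had 23 of 33 tested, 16 higher and 7 lower, a median of 0.34, and 0.84 without CTR 3. CSF3, the granulocyte growth factor, had 0.187, 0.0561 and 1.18 CPM in CTR compared with 0.697, 7.46 and 2.72 CPM in V3. CCL2, a monocyte chemokine, had 1.17, 0.673 and 22.9 CPM in CTR against 0.797, 2.54 and 1.16 CPM in V3. Both overlapped, CTR 3 was the highest control for each, and V3 2 the highest V3 library. CSF1, the macrophage growth factor, went the other way without overlap, with 74.9, 66.3 and 134 CPM in CTR compared with 57.4, 38.9 and 59.6 CPM in V3, a log2 difference of -0.82 (SE 0.31) that was -0.43 without CTR 3.

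Among genes of plasminogen activation, 12 of 13 were tested and 8 were higher, with a median of 0.53 (0.35 without CTR 3) and 2 wholly higher, 1 wholly lower. PLAUR, the urokinase receptor, had 47.7, 57.4 and 36.2 CPM in CTR compared with 85.2, 92.9 and 59 CPM in V3, a log2 difference of 0.75 (SE 0.40). It was above CTR in all 3 V3 libraries. TFPI, an inhibitor of tissue factor, was the wholly lower member, with 199, 149 and 284 CPM in CTR against 129, 108 and 145 CPM in V3.

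Lipid synthesis genes stood lower in V3. Of 27 genes of cholesterol synthesis and uptake, 26 were tested, 2 were higher and 24 lower, with a median of -0.76, 11 lower and 1 higher at an unadjusted p under 0.05 (2.46% and 1.77% of all genes), and 8 wholly lower and 1 wholly higher (5.17% and 4.93%). FDPS, which makes farnesyl diphosphate, had 64.7, 50.3 and 110.2 CPM in CTR compared with 49, 39 and 38 CPM in V3, a log2 difference of -0.84 (SE 0.27). SQLE, squalene epoxidase, had 59.7, 50.8 and 120.2 CPM in CTR against 47, 42.4 and 33.7 CPM in V3, a log2 difference of -0.91 (SE 0.31). FDFT1, squalene synthase, had 76.8, 62.4 and 162 CPM in CTR compared with 58.8, 51.4 and 44.5 CPM in V3, a log2 difference of -0.96 (SE 0.33). All 3 enzymes were lower in every V3 library, and in each CTR 3 stood well above CTR 1 and CTR 2. Without CTR 3 their log2 differences were -0.45 for FDPS, -0.42 for SQLE and -0.43 for FDFT1. MSMO1, a sterol methyl oxidase, had 37.3, 26 and 198 CPM in CTR compared with 27.1, 24.9 and 19.9 CPM in V3, which overlapped, and its log2 difference of -1.86 (SE 0.60) became -0.39 without CTR 3. The wholly higher member was NPC1L1, a cholesterol transporter best known from the intestine, with 0.14, 0.168 and 0.177 CPM in CTR, the level of 3 counts a library, and 0.697, 1.07 and 1.27 CPM in V3. CTR 3 was the highest CTR library in 24 of the 26 genes. Without it the list median was -0.26, with 22 of 26 lower and 8 wholly lower, 2 wholly higher (10.2% and 11.2% of all genes). Without V3 1 the median was -0.84 and 17 were wholly lower (13.8% of all genes).

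The promoter of FDPS, the cholesterol gene with the smallest p of the list, held 3 CCAAT boxes, set in capitals, 176, 122 and 51 bases before the start site, the first and last read on the other strand as ATTGG and none overlapping another motif searched. It is from RefSeq on GRCh38.p14, plus strand, chr1:155308616-155308915.
FDPS promoter: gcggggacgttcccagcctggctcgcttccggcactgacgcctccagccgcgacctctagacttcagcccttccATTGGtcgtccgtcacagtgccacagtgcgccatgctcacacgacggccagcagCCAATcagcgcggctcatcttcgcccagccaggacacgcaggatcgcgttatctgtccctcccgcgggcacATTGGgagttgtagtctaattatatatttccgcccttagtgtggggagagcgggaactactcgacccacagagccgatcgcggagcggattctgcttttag
Searched on both strands, CCAAT occurred in 35.7% of all RefSeq promoters, in 35.8% of those of genes tested here and in 16 of the 20 cholesterol genes with a promoter (80.0%). The sterol-regulatory motif TCACNCCAC was in 1.15% of all promoters and in 1 of those 20. Only this pattern was searched, so sterol sites with another sequence were not counted.

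Fatty acid synthesis had 15 of 15 genes tested, 1 higher and 14 lower, with a median of -0.53 and 6 wholly lower, 0 wholly higher. SCD, the desaturase that makes oleate, had 865, 509 and 5080.0 CPM in CTR against 358, 181 and 309.8 CPM in V3, a log2 difference of -2.93 (SE 1.01). FASN, fatty acid synthase, had 723, 601 and 2285 CPM in CTR compared with 567.5, 485 and 564 CPM in V3. FADS2, a desaturase of polyunsaturated fatty acids, had 199, 179.9 and 726 CPM in CTR against 132, 112 and 158 CPM in V3. The V3 libraries were lower in all 3 genes, and again CTR 3 was far above the other controls. It was the highest CTR library in 12 of the 15 genes, and without it the median was -0.11, the difference of FASN was -0.29 in place of -1.16, and that of SCD was -1.27. CTR 3 also had the lowest score for genes of the G2/M phase of the cell cycle (-1.87, the mean log2 level relative to all Met5a libraries). Of 25 such genes 24 were higher in V3 with CTR 3 and 21 were lower without it, and the part of CTR 3 in the lipid values beyond these figures was not tested.

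**Figure D4:**
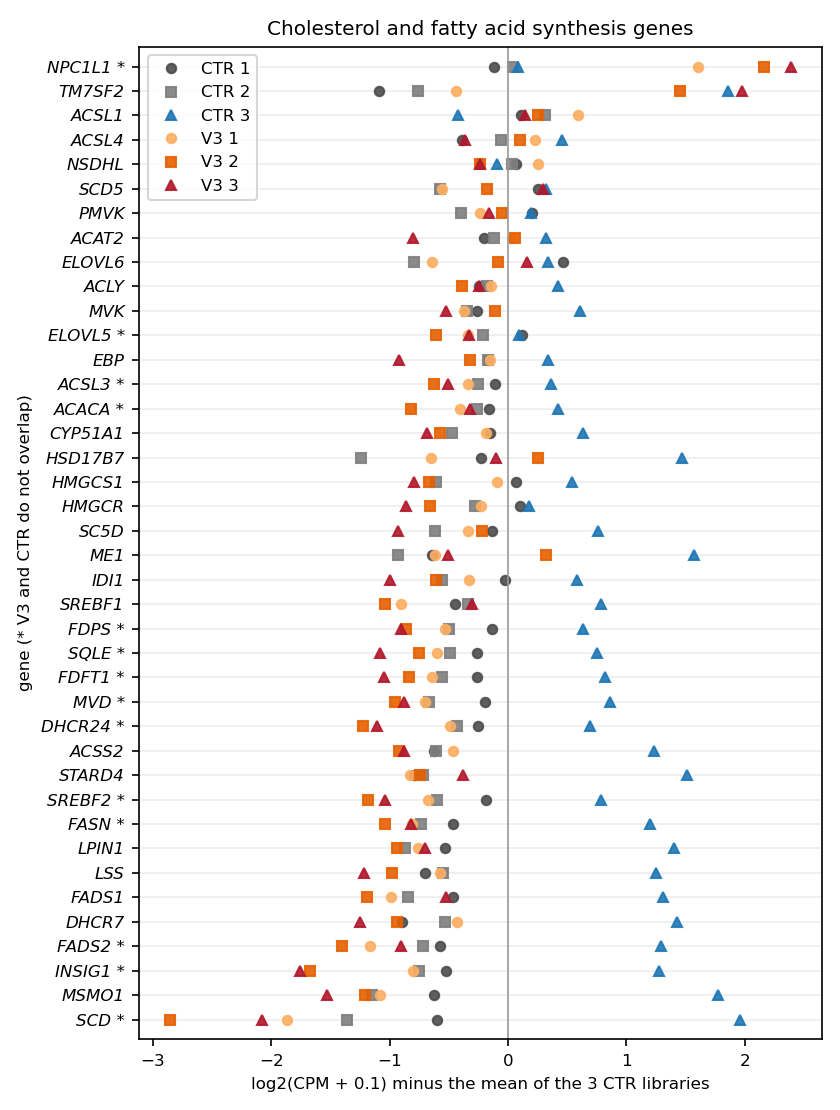
Cholesterol and fatty acid synthesis genes reported by name, 1 gene a line, with each of the 6 libraries as a point at its log2(CPM + 0.1) minus the mean of the 3 CTR libraries (x axis); an asterisk marks genes whose V3 and CTR libraries do not overlap. CTR 3 is the rightmost CTR point in most genes, and V3 2 and V3 3 lie left of CTR 1 and CTR 2 in FDPS, SQLE and SCD.

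Of the 5 genes that DESeq2 called lower, 2 were collagens. COL6A3, a chain of the microfibrillar collagen VI, had 171, 2.08 and 10.1 CPM in CTR compared with 0.747, 0.17 and 0.173 CPM in V3 (DESeq2 adjusted p = 0.000187). COL14A1, a fibril-associated collagen, had 4.21, 3.37 and 11.3 CPM in CTR against 0.847, 0.226 and 0.347 CPM in V3 (0.0162). Both were lower in every V3 library, and most of the COL6A3 signal came from CTR 1, without which its log2 difference of -7.33 was -3.995. Of 29 collagens 24 were tested, 5 higher and 19 lower, with a median of -0.39, 3 wholly lower and 1 wholly higher, and 11 wholly lower without CTR 3 (10.2% of all genes). The median was -0.61 without V3 1. The wholly higher one was COL4A6, a basement membrane chain, with 28.3, 27.1 and 24 CPM in CTR compared with 36.2, 49.5 and 87.4 CPM in V3, a log2 difference of 1.12 (SE 0.29) that was 0.72 without V3 3. Fibril collagens COL1A1 and COL1A2 varied between controls, with 212, 110.0 and 34.9 and 68.3, 4.04 and 0.885 CPM in CTR 1, 2 and 3, against 60.8, 20.9 and 32.7 and 1.79, 1.98 and 1.44 CPM in V3. Their groups overlapped, with V3 inside or below the CTR range.

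Fibroblast markers were lower alongside the collagens, and COL1A1, COL1A2 and COL3A1 are in both lists. All 8 tested of 12 were lower in V3, 2 of them wholly, with a median of -1.84 and -1.14 without CTR 1. CTR 1 was the highest CTR library in all 8. Summed over the marker list, CTR 1, 2 and 3 had 1615, 1097 and 488 CPM and V3 1, 2 and 3 had 660.3, 289.5 and 123 CPM, most of it from COL3A1 (1047, 808 and 404 CPM in CTR against 474, 164 and 63.2 CPM in V3). DCN, the proteoglycan decorin, had 6.41, 3.2 and 4.13 CPM in CTR compared with 1.54, 0.282 and 0.693 CPM in V3, and PDGFRA, a growth factor receptor, stood at 64.1 CPM in CTR 1 and at or below 0.826 CPM in the other 5. In bulk RNA, fewer cells of a type and less RNA per cell cannot be told apart, and the part of the fibroblast markers in the collagen values was not tested.

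The remaining genes called lower by DESeq2 were MAGED4 (4e-14), PIK3C2B (0.0474) and SEMA5B (0.0482). MAGED4 (ENSG00000154545, GRCh38 chrX:52184823-52192268), a member of the MAGE family, had 17.8, 14 and 15.2 CPM in CTR against 0.996, 0.904 and 1.33 CPM in V3, a log2 difference of -3.85 (SE 0.47) with the smallest edgeR adjusted p of all genes, 0.0658. Every V3 library was far below every CTR library. Its near-identical copy MAGED4B had 2.2, 0.842 and 6.08 CPM in CTR compared with 1.39, 0.621 and 1.79 CPM in V3, and the counting could split reads between the copies. With the counts of both summed, the difference was -2.99 (SE 0.70, edgeR adjusted p = 1.00). Of 27 MAGE and cancer-testis genes 8 were tested, 4 higher and 4 lower, with a median of 0.02, and MAGED4 was the 1 member without overlap. PIK3C2B, a class II phosphoinositide 3-kinase, had 30.3, 25.2 and 39.6 CPM in CTR against 17.1, 14.7 and 13.6 CPM in V3, a log2 difference of -1.06 (SE 0.23). SEMA5B, a transmembrane semaphorin chosen after its values were seen, had 8.04, 3.54 and 5.54 CPM in CTR compared with 1.34, 0.339 and 0.924 CPM in V3. Both were lower in all 3 V3 libraries.

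Other lower genes were taken by the smallest p, by the widest gap or from the Wnt and Notch lists. FZD8 and FZD4 are Wnt receptors, and FZD8 had 34.6, 12.9 and 46.6 CPM in CTR against 10.7, 7.12 and 11.6 CPM in V3, a log2 difference of -1.68 (SE 0.42). FZD4 had 30.6, 18.2 and 18.9 CPM in CTR compared with 12.2, 6.61 and 6.7 CPM in V3, a log2 difference of -1.41 (SE 0.44). PRICKLE2, a planar cell polarity protein, had 26.8, 10.8 and 17.6 CPM in CTR against 7.97, 3.39 and 3.12 CPM in V3, a log2 difference of -1.93 (SE 0.54). None of the 3 overlapped, and V3 2 or V3 3 was the lowest library. In contrast, FZD6, another Wnt receptor, had 55.8, 67 and 57.3 CPM in CTR compared with 80.9, 88.5 and 94.1 CPM in V3, and the ligand WNT5B had 20.9, 16.9 and 11.3 CPM in CTR against 31.2, 58.9 and 48.6 CPM in V3. Both were higher without overlap, so the Wnt list held 5 wholly higher and 2 wholly lower members among 29 tested of 33, with a median of 0.15. Without CTR 3 that median was -0.02, with 13 higher and 16 lower. PTCH1, the Hedgehog receptor and itself a Hedgehog target, had 22.7, 15.5 and 33.5 CPM in CTR compared with 10.7, 6.44 and 12.2 CPM in V3, a log2 difference of -1.28 (SE 0.36). MAML2, a Notch coactivator, had 13, 9.54 and 13.8 CPM in CTR against 6.67, 4.07 and 4.28 CPM in V3, a log2 difference of -1.27 (SE 0.36). NOTCH3, a Notch receptor, had 166, 74.4 and 98.1 CPM in CTR compared with 40.3, 22.2 and 54.4 CPM in V3, a log2 difference of -1.53 (SE 0.61). PTCH1 and MAML2, like NOTCH3, were lower in every V3 library, with NOTCH3 lowest in V3 2. Of 14 Notch genes tested of 16, 11 were lower and 3 higher, 2 wholly lower and 0 wholly higher, with a median of -0.17 that was -0.26 without V3 1 and -0.01 without V3 2.

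MEIS1, a homeobox transcription factor, had 24.6, 21 and 24.4 CPM in CTR against 13.7, 7.23 and 8.32 CPM in V3, a log2 difference of -1.26 (SE 0.33). DPYSL2, a microtubule-binding protein, had 96.6, 84.3 and 149 CPM in CTR compared with 66.9, 56.3 and 51.3 CPM in V3, a log2 difference of -0.92 (SE 0.23). SEPT4, a septin, had 15.7, 11.5 and 16.7 CPM in CTR against 6.77, 4.8 and 6.36 CPM in V3, a log2 difference of -1.29 (SE 0.37). All 3 were lower in every V3 library with tight controls for MEIS1. The transcription factors OSR1, MIER3 and ZNF33A were also lower in every V3 library. Their log2 differences were -1.28 (SE 0.41), -0.72 (SE 0.23) and -0.63 (SE 0.22). So were the long non-coding RNAs NKILA, AC074117.1 and GABPB1-AS1, at -0.75 (SE 0.26), -0.84 (SE 0.30) and -0.66 (SE 0.25). Other genes rested more on CTR 3: the glutamate transporter SLC1A3 had 153, 112 and 533 CPM in CTR compared with 86.9, 51.5 and 67.3 CPM in V3. TNFSF15, a cytokine of the TNF family, had 1.82, 1.68 and 110.3 CPM in CTR against 0.548, 0.791 and 0.867 CPM in V3. SULF1, a heparan sulfate 6-O-endosulfatase, had 55.3, 25.7 and 171 CPM in CTR compared with 11.6, 2.49 and 0 CPM in V3, the last from 0 counts. In these 3 the V3 libraries were still all below CTR 1 and CTR 2.

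Direct targets of the BMP-SMAD pathway, through which AMH receptors signal, showed no common direction. Of 24 listed, 23 were tested, 12 higher and 11 lower, with a median of 0.02 and 0 without overlap (10.1% of all genes in either direction). The median ran from -0.19 without CTR 3 to 0.29 without CTR 1. ID1, an inhibitor of differentiation and the classical target, had 404, 444 and 44.5 CPM in CTR against 252, 406 and 605 CPM in V3. The groups overlapped, with CTR 3 the lowest library. V3 1, with the most AMHR2, was below CTR 1 and CTR 2, and V3 2 was below CTR 2. ID3, another member of that family, had 232, 176 and 22.8 CPM in CTR compared with 147, 100.2 and 131 CPM in V3, all inside the CTR range. ID1 and ID3 were chosen after their values were seen. BAMBI, a decoy receptor of the family, had 40.1, 15.1 and 10.7 CPM in CTR against 14.2, 8.42 and 5.55 CPM in V3, a log2 difference of -1.22 (SE 0.49). SMAD7, an inhibitory SMAD, had 27, 34.3 and 30 CPM in CTR compared with 30.7, 15.3 and 14.4 CPM in V3, a log2 difference of -0.60 (SE 0.44). Both overlapped through V3 1, the difference of BAMBI was -0.44 without CTR 1, and that of SMAD7 was -1.04 without V3 1 and -0.39 without V3 3. The list of AMH, SMADs and receptors, which includes TGF-beta receptors, had 18 of 20 tested, 9 higher and 9 lower, with a median of 0.01. In it 3 were wholly higher (AMHR2, overexpressed by design, ACVR1 and TGFBR2) and 1 wholly lower (TGFBR3). TGFBR2, the type II TGF-beta receptor, had 156, 162 and 153 CPM in CTR against 171, 202 and 291 CPM in V3, and the co-receptor TGFBR3 had 8.84, 8.36 and 26.8 CPM in CTR compared with 7.77, 6.67 and 7.74 CPM in V3. BMP and activin ligands and antagonists, 30 of 35 tested, had 12 higher, 18 lower, a median of -0.08 (0.07 without V3 1) and 0 wholly higher, 2 wholly lower. These 2 were TGFB1, the ligand of TGFBR2, with 269.9, 254 and 209.6 CPM in CTR against 192, 136 and 131 CPM in V3, and BMP1, a procollagen protease rather than a BMP ligand, with 209, 252 and 350.0 CPM in CTR compared with 191, 109 and 189 CPM in V3.

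Targets of TGF-beta and SMAD3 were split. Of 20 listed, 18 were tested, 6 higher and 12 lower, with a median of -0.49 that became -0.10 without CTR 2, -0.17 without V3 3 and -0.25 without V3 2, and 2 wholly higher and 1 wholly lower. KLF10, a TGF-beta-inducible zinc-finger factor, had 85.1, 78.9 and 40.3 CPM in CTR against 105, 154 and 220.4 CPM in V3, a log2 difference of 1.23 (SE 0.33). It was higher in every V3 library. CDKN2B, an inhibitor of CDK4 and CDK6, had 33.6, 27.3 and 99.6 CPM in CTR compared with 24.1, 16.2 and 17.7 CPM in V3, a log2 difference of -1.47 (SE 0.65), and was lower in every V3 library. Without CTR 3 that difference was -0.65.

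Markers of mesothelial cells were checked because the labels give that cell type. Of 16 listed, 13 were tested, 6 higher and 7 lower, with a median of 0.00, and their summed level was 4828, 6332 and 2825 CPM in CTR against 5762, 4299 and 2815 CPM in V3. The keratin KRT8 made much of that sum, with 2499, 3141 and 1483 CPM in CTR against 2743, 1946 and 1219.9 CPM in V3. MSLN, mesothelin, had 10.6, 15 and 48.5 CPM in CTR compared with 14.7, 29.9 and 29.3 CPM in V3, and both genes overlapped. Of the defining markers, WT1 was at 3.88 CPM in CTR 1 and at or below 0.116 CPM in the other 5. CALB2, calretinin, was the wholly lower member, with 18.3, 15.3 and 57.5 CPM in CTR against 6.62, 3.9 and 3.47 CPM in V3, a log2 difference of -2.70 (SE 0.82). The wholly higher member was PDPN, podoplanin, with 5.99, 12 and 12.9 CPM in CTR compared with 15.5, 17.4 and 18.1 CPM in V3. Summed epithelial markers were 41.6, 39.6 and 68.8 CPM in CTR against 33.2, 21.2 and 40.7 CPM in V3, and summed smooth muscle markers were 213, 359 and 134 CPM against 440.1, 127 and 49.6 CPM. Leukocyte markers summed to 0.898 to 2.60 CPM.

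**Figure D5:**
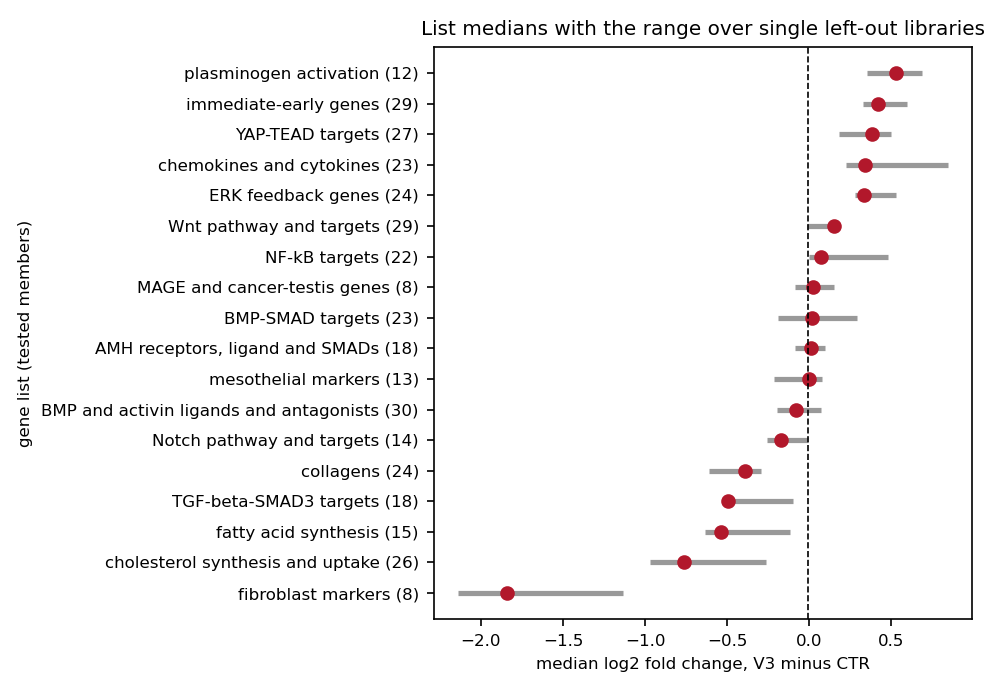
Median log2 difference (V3 minus CTR) of each described gene list (dot) with its range over the fits that each leave out 1 library (bar); the dashed line is the median of all genes, -0.004. ERK feedback genes stay between 0.28 and 0.53, the cholesterol list between -0.97 and -0.26, and the BMP-SMAD targets cross 0.

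The 15 genes that varied most within V3 were taken from protein-coding genes with a mean of at least 5 CPM. AMHR2 and ACVR1 were left out, and the set was chosen after its values were seen. Of the 15, 8 were highest in V3 1 and lowest in V3 3, and 4 were highest in V3 3 and lowest in V3 1. The other 3 had another order. SHISA3, a transmembrane protein of the Shisa family, had 116, 76.2 and 87.7 CPM in CTR against 67.5, 3.5 and 0 CPM in V3. ACTG2, a smooth muscle actin, had 14, 36.8 and 1.24 CPM in CTR compared with 45.9, 27.9 and 0.116 CPM in V3. TAGLN, a smooth muscle actin-binding protein, had 185, 342 and 85 CPM in CTR against 427, 106 and 16.5 CPM in V3. In each V3 1 was the highest and V3 3 the lowest V3 library, the order of AMHR2, and for ACTG2 and TAGLN V3 1 also lay above every CTR library. COL5A3, a chain of collagen V, had 138, 127 and 26.4 CPM in CTR compared with 103, 10.6 and 6.76 CPM in V3, with the same order. The reverse order was seen in INPP5D, an inositol phosphatase, with 4.4, 1.74 and 58.3 CPM in CTR against 1.3, 12.1 and 29.1 CPM in V3. It was also seen in CFI, complement factor I, with 8.37, 6 and 2.83 CPM in CTR compared with 1.3, 3.9 and 22.5 CPM in V3, and in CLCA2 and CSMD3. Over all genes tested the median SD of log2 CPM was 0.300 within V3 and 0.362 within CTR.

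V3 was also set against V1, to see whether the 2 receptor forms gave different values in the genes described. By edgeR 0 of 17175 genes were called (0%), while 689 had an unadjusted p under 0.05 and the smallest adjusted p was 0.985. DESeq2 called 1, RND2, a small GTPase, with 1.59, 5.25 and 4.1 CPM in V3 and 0.579, 0.446, 0.517 and 0.753 CPM in V1 1, 2, 3 and 4. The V3 libraries were all above V1, with V3 2 and V3 3 also above CTR at 1.12, 1.4 and 1.95 CPM, and the log2 difference V3 minus V1 was 2.66 (SE 0.48, DESeq2 adjusted p = 0.0102, edgeR adjusted p = 0.985). Both forms are compared with the same CTR libraries, so their differences from CTR are given side by side and are not independent. MAGED4 differed from CTR by -3.85 in V3 and -3.70 in V1 (edgeR adjusted p = 0.028 for V1 against CTR). For TNFAIP3 the values were 1.17 and 1.34, for COL14A1 -3.70 and -3.87, and for SEMA3D 1.19 and 1.11. V3 and V1 lay further apart in MYEF2 (2.42 and 1.15) and COL6A3 (-7.33 and -5.43). The median of the ERK feedback list was 0.34 in V3 and 0.20 in V1, that of the immediate-early list 0.42 and 0.40, that of the cholesterol list -0.76 and -0.43, and that of BMP-SMAD targets 0.02 and 0.35. The 4 V1 libraries also spread widely in AMHR2, from 1.98 to 5253 CPM, as the 3 V3 libraries did. V1 4, the library closest to V3 1, differed from V1 1 to 3 in 3 genes that edgeR called between V3 and V1 when V1 4 was left out. These were BICC1, an RNA-binding protein, PCDHGB5, a clustered protocadherin, and PDPN, with adjusted p of 0.00582, 0.01 and 0.00582. PDPN had 0.347, 0.149, 0.047 and 14.8 CPM in V1 1, 2, 3 and 4, and BICC1 had 2.08, 1.19, 0.8 and 23.7 CPM, against 21, 55.3 and 47 CPM in V3. PCDHGB5 had 0.695, 1.29, 1.65 and 17.5 CPM in V1 and 17.1, 13.4 and 30.6 CPM in V3. V1 1 to 3 were low in all 3 genes, and V1 4 stood at the level of V3 and CTR.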

How the data were processed

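RNA was measured in 10 Met5a libraries, of which 3 V3 and 3 CTR libraries are compared. The authors deposited whole-number counts per gene, which were tested, and FPKM values, which equal the deposited count over gene length times 1 factor per library. The build, aligner, counter and strand setting were not given in the sources used here, so overlapping and antisense genes are uncertain; start and end of 58735 of 58735 genes match GENCODE 29 (GRCh38), and promoters are RefSeq GRCh38.p14, matched by symbol. No column of sample values was left unused (0).

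Genes were kept with filterByExpr (minimum count 10) and tested two-sided with the quasi-likelihood test of edgeR 4.0.16 in R 4.3.3, with TMM factors, 1 coefficient per group over all 10 libraries and Benjamini-Hochberg adjustment at 0.05. SE is the absolute log2 difference over the square root of F. The script was tested on simulated data. Alternatives were DESeq2 1.42.0, limma 3.58.1 on log2(FPKM + 1) with genes at 1 FPKM or more in 3 libraries, RLE factors, no filter, the compared groups only, a replicate block and each library left out.

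The comparison, lists and named-gene rule were chosen with earlier results of these data known, and the 18 lists described were narrowed from 52 after results were seen. Named were AMHR2, AMH and ACVR1; protein-coding genes with a mean of at least 5 CPM and groups that did not overlap, by smallest p (12 a direction) and widest gap (10 a direction); up to 4 transcription factors and 3 long non-coding RNAs a direction; up to 6 genes called by DESeq2; and up to 4 members a list by smallest p. Other genes named, such as NPC1L1, JUN, ATF3, CYR61, CTGF, PLAUR, SEMA5B, CCND1 and COL3A1, were chosen after their values were seen. Replicate numbers were not used to pair the samples. Whether the libraries of each group were separate cultures is not in the labels, so the p-values reflect spread between samples whose independence is not known. Limits for 0 counts (3 counts) cover counting error only. Some genes of these lists are not reported here by name.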

Additional observations from a re-analysis of the deposited data

Results flagged for a closer look

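In 2 of the 17175 genes every V3 library lay on one side of CTR and every V1 library on the other. AC048341.1 (GRCh38 chr12:62602752-62622213), a long non-coding RNA, had 1.05, 1.70 and 1.39 CPM in V3, which lay below CTR (2.53, 2.13 and 2.71 CPM), while V1 lay above it (5.50, 4.51, 3.53 and 2.90 CPM). Its log2 difference V3 minus V1 was -1.58 (SE 0.38, edgeR adjusted p = 0.985). MOCS3 (chr20:50958826-50963931), an enzyme of molybdenum cofactor synthesis and tRNA thiolation, had 56.5, 58.5 and 66.8 CPM in V3, above CTR (56.0, 56.4 and 55.0 CPM), while V1 lay below it (49.4, 49.4, 41.9 and 49.6 CPM). Its log2 difference V3 minus V1 was 0.349 (SE 0.15, edgeR adjusted p = 0.985). The test of V3 against V1 did not pass its threshold for either gene, and V3 1 stood within 1 CPM of CTR in MOCS3.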

How the results depend on the processing

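For V3 against CTR the edgeR test called 0 genes with RLE factors, with the replicate block and with any 1 CTR or V3 library left out. It called 226 genes with no filter and 1 (MAGED4) with the compared groups only, DESeq2 called 10 and limma called 1. Of the 226, 51 were higher in V3, among them AMHR2, ACVR1, EGR1, FOSL1 and TNFAIP3. COL6A3, SCD and MSMO1 were among the lower ones. The reported fit had tested each gene named here, at a near-equal log2 difference, and called none. Genes at an unadjusted p under 0.05 numbered 727, and 1788 with no filter, 471 with limma, 499 with the replicate block, 318 to 1101 with 1 library left out and 1276 without CTR 3 and V3 1, an alternative chosen after seeing the data. For V3 against V1 the count of 0 became 75 with no filter, 3 with the replicate block, 1 with DESeq2 and 0 to 3 with 1 library left out. Deviations of same-numbered V3 and CTR libraries from their group means correlated at 0.03, -0.093 and 0.289, so the numbers were not used as pairs. Non-overlapping genes numbered 2465 to 4937 with 1 library left out and 8762 without CTR 3 and V3 1, against 1735. Fewer libraries overlap less by construction, but the count also depended on the library, with 2465 without V3 2 and 4937 without V3 1. How much of the rise came from the smaller number of libraries was not tested. Signs were reversed for SOD2 (-2.49 to 0.59 with 1 library left out, positive without CTR 3, and 0.78 without CTR 3 and V3 1), CCL2 (-3.04 to 0.70, positive without CTR 3, and 1.00), CHRD (0.012 without both) and AMH (-0.11 to 0.31, negative without CTR 1 or V3 1, and -0.14 without CTR 3 and V3 1). Of the other alternative values of named genes, 1295 kept direction and side of the threshold and 51 passed it. The spread within V3 and within CTR, and 3 libraries a group, limit what could be called.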

Other observations

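Metallothioneins, which bind zinc and copper, were described in no comparison above. Of the list, 5 were tested, 4 were higher and 1 lower in V3, with a median log2 difference of 0.47 and 2 wholly higher, 0 wholly lower. MT2A had 168, 246.6 and 178 CPM in CTR against 300.5, 727 and 605 CPM in V3, so every V3 library was higher and V3 2 was the highest. MT1X had 11.3, 12.3 and 7.43 CPM in CTR against 12.9, 17.5 and 12.5 CPM in V3, without overlap but by a small margin in V3 3. MT1E had 53.8, 68.7 and 15.9 CPM in CTR against 56.3, 133 and 108 CPM in V3, and overlapped through V3 1. Interferon-stimulated genes had 40 members tested, 16 higher and 24 lower, with a median of -0.15, 4 wholly higher and 2 wholly lower. That median ran from -0.30 without CTR 2 to 0.06 without CTR 3, where 22 were higher and 18 lower. Genes that the liver X receptors induce had 11 members tested, 9 lower and 2 higher, with a median of -0.37 that ran from -0.60 without CTR 2 to 0.01 without CTR 3.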
